A study of Sus scrofa with 599 samples.

Results

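Greater omentum (GOM), a visceral adipose tissue (VAT) that hangs from the stomach inside the abdomen, was compared with the upper layer of backfat (ULB), a subcutaneous adipose tissue (SAT) beneath the skin, in pigs kept on a normal diet (NC). The pigs were 2-year-old females of the Bama breed, a Chinese miniature pig, and none of these NC animals had been given the high-fat diet of the weight-gain (WG) group or the restricted diet of the weight-loss (WL) group. Members were chosen by label: every deposited NC sample of GOM or ULB, which made 40 of the 599 samples of the series. RNA-seq and in situ Hi-C were each represented by 9 GOM and 5 ULB samples, and ChIP-seq of H3K27ac, a histone mark of active promoters and enhancers, by 3 samples and their inputs per tissue. Both tissues were profiled whole, so each value mixes adipocytes with mesothelial, vascular, immune and stromal cells, and the labels do not tie samples to individual pigs. The study took every tissue from each carcass, so GOM and ULB samples come from the same group of pigs. The main tests do not pair them, and their p-values measure the spread between these samples.

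Fat depots arise from different embryonic tissue and keep distinct gene programmes in the adult. The omentum is covered by mesothelium, a sheet of epithelium-like cells, and holds clusters of immune cells called milky spots, whereas backfat is bounded by dermis and fascia rich in collagen. Visceral fat drains towards the liver, and subcutaneous fat is the main site of lasting lipid storage and of leptin output. In the nucleus, active chromatin gathers in compartment A and inactive chromatin in compartment B, and long clusters of regions marked by H3K27ac, called super-enhancers, often lie at genes that define a cell type.

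Expression levels are given in TPM, the deposited unit of transcript abundance, which allows for transcript length so that levels of different genes can be set side by side. Fold changes are log2 values of GOM over ULB from edgeR's quasi-likelihood test on estimated counts, given ± SE, so that a positive value is higher in GOM. Adjusted p-values are Benjamini-Hochberg values over 14316 protein-coding genes (PCGs). A gene was counted as differentially expressed (DEG) where the adjusted p was under 0.05 and the tissues differed by more than 1.5-fold. Of the PCGs tested, 1739 (12.1%) were DEGs higher in GOM and 1899 (13.3%) were DEGs higher in ULB, together 25.4%, and the median log2 fold change of all genes tested was 0.02. Replicate numbers 2, 5, 7 and 9 occur in both tissues and were treated as pairs. In the fit with the number as a block, which rests on those 4 pairs and has 3 residual degrees of freedom, 646 genes were higher in GOM and 651 in ULB, and its value is given beside the named genes and the list counts that it changes. These 646 and 651 of 14316 genes are the background for every list count given with the block.

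The libraries differed in a technical respect that moves with the tissue. PCGs held 74.8% to 79.97% of all TPM in 7 of the 9 GOM libraries and 95.6% to 96.0% in the other two, against 82.1% to 84.6% in 2 and 92.4% to 96.3% in 3 of the 5 ULB libraries. Within the libraries of 90% or more, 828 genes were higher in GOM and 1044 in ULB, and within those below 90% the counts were 511 and 538. The part of this split in single results was not tested beyond these fits. The 5 ULB values of a gene are given below in the order of replicates 2, 5, 7, 9 and 12.

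The genes with the largest change higher in GOM were dominated by mesothelial markers and factors of the visceral lineage, and those higher in ULB by patterning factors, secreted signals and proteins of connective tissue. The 12 genes higher in GOM and 11 higher in ULB described here were chosen for a large change, a mean of at least 10 TPM in the higher tissue and TPM ranges that do not overlap, so their separation is a description. Among all genes tested, ranges of TPM did not overlap for 468 higher in GOM (3.27%) and 634 higher in ULB (4.43%). UPK1B, a membrane tetraspanin of urothelium and mesothelium on chromosome 13 (13:141013953-141026368 in Sscrofa11.1), had 21.6 to 114 TPM (median 37.5) in GOM. Its ULB values were 0, 0.129, 0.283, 1.22 and 0.108 TPM. This is a log2 fold change of 7.35 ± 0.70, or 164-fold. GPM6A, a membrane glycoprotein that mesothelium shares with neurons, had 52.3 to 244 TPM (median 82.5) in GOM. In ULB it had 2.38, 2.47, 1.67, 2.75 and 4.63 TPM, so that even the lowest omental library was above every backfat library by a wide margin. BNC1, a zinc finger protein of mesothelium and stratified epithelium, had 3.03 to 36.4 TPM (median 8.97) in GOM and 0 to 0.436 TPM in ULB. PKHD1L1, a large membrane protein related to fibrocystin, had 6.47 to 28.2 TPM (median 15.9) in GOM and 0 to 1.51 TPM in ULB.

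**Figure D1:**
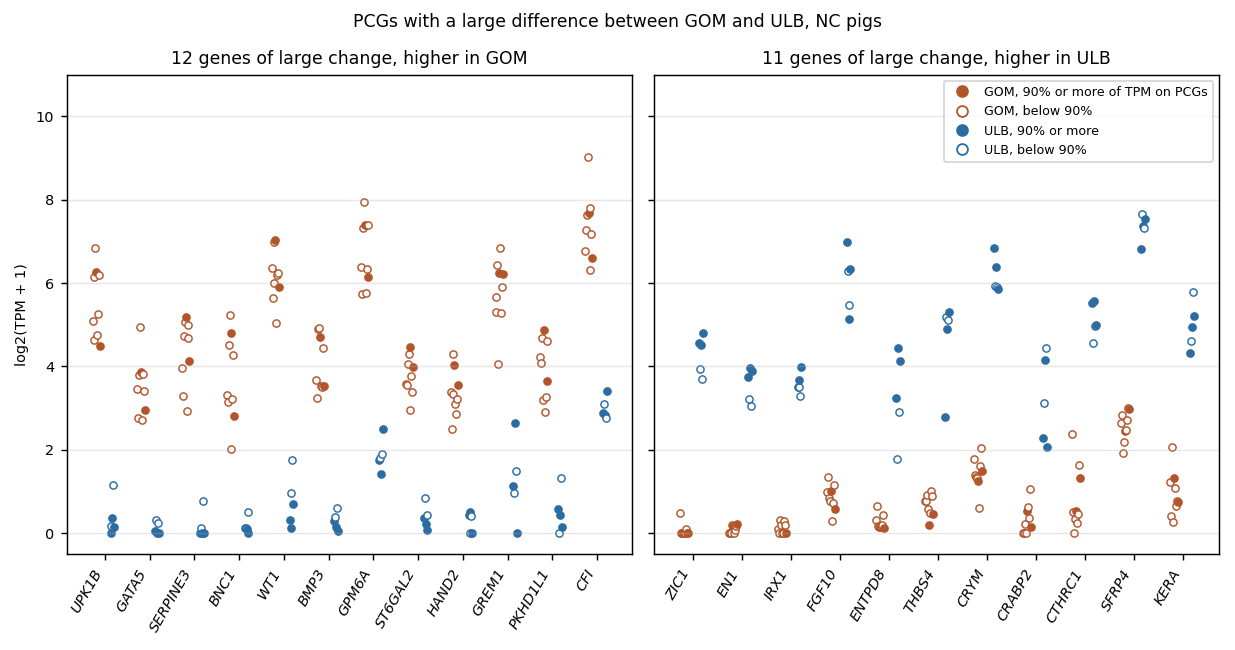
Expression of the 23 genes of large change described here, as log2(TPM + 1) on the vertical axis, with 1 point per library for 9 GOM (orange) and 5 ULB (blue) libraries. Filled points are libraries with 90% or more of TPM on PCGs and open points are those below 90%. The ranges of the tissues do not overlap for any of the 23 genes, which was a condition of choosing them, and CFI and GPM6A in GOM and SFRP4 in ULB reach the highest levels.

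Among the remaining genes of this kind, the transcription factors GATA5, WT1 and HAND2 were at 5.53 to 29.9 TPM (median 9.95), 31.9 to 130.2 TPM (median 71.8) and 4.63 to 18.7 TPM (median 9.12) in GOM. All 3 were below 2.5 TPM in every ULB library. TCF21, a further factor of visceral mesoderm, was at 4.19 to 9.67 TPM (median 4.84) in GOM and 0 to 0.213 TPM in ULB. GREM1, a secreted antagonist of bone morphogenetic proteins (BMPs), was at 15.7 to 113 TPM (median 59.4) in GOM. Its ULB values were 1.21, 0.948, 5.25, 1.82 and 0 TPM, of which replicate 7 was the highest. BMP3, a BMP family member that opposes other BMPs, was at 8.51 to 29.1 TPM (median 11.7) in GOM and 0.0322 to 0.526 TPM in ULB. SERPINE3, a member of the serpin family, was at 6.67 to 35.5 TPM (median 24.5) in GOM and ST6GAL2, an enzyme that adds sialic acid to glycans, at 6.75 to 21.2 TPM (median 12.6).

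In the other direction, the patterning factors ZIC1, EN1 and IRX1 had ULB levels of 12 to 26.9 TPM, 7.31 to 14.5 TPM and 8.75 to 14.7 TPM, and none of them passed 0.4 TPM in any GOM library. FGF10, a growth factor that acts on preadipocytes, stood at 125, 77.1, 34.3, 43.5 and 79.3 TPM in the ULB libraries. In GOM it was at 0.227 to 1.54 TPM (median 0.81), a log2 fold change of -6.36 ± 0.33 (adjusted p = 1.41e-09). SFRP4, a secreted protein that binds WNT ligands, was among the strongest signals of backfat, at 112, 201, 164, 158 and 184 TPM against 2.77 to 7.05 TPM (median 5.21) in GOM. CRYM, which binds thyroid hormone in the cytosol, was at 114, 60.4, 83, 58.6 and 57.4 TPM in ULB and 0.519 to 3.14 TPM (median 1.65) in GOM. THBS4, a thrombospondin of tendon and muscle matrix, was at 5.96, 35.6, 29.1, 33.5 and 38.7 TPM in ULB, where replicate 2 was far below the other 4, and at 0.151 to 1.02 TPM (median 0.718) in GOM. KERA, a keratan sulphate proteoglycan, was at 19 to 53.8 TPM in ULB and 0.202 to 3.18 TPM (median 0.7) in GOM. CTHRC1, a secreted protein of matrix-forming cells, was at 22.8 to 46.3 TPM in ULB and 0 to 4.18 TPM (median 0.43) in GOM. ENTPD8, an enzyme that cleaves extracellular nucleotides, was at 2.42 to 20.7 TPM in ULB and 0.0884 to 0.587 TPM (median 0.128) in GOM.

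Marker levels went with the labels. Adipocyte genes were high in both tissues, with ADIPOQ, the gene of adiponectin, at 1836 ± 536 TPM (SD, n = 9) in GOM and 3545 ± 1098 TPM (SD, n = 5) in ULB. WT1 and TCF21, which mark visceral fat, were near 0 in ULB, and EN1 and IRX3, which mark the skin and trunk wall, were near 0 in GOM. IRX3, a homeobox factor, was at 14.1, 14.8, 15.6, 15.4 and 15.5 TPM in ULB and 0 to 1.83 TPM (median 0.584) in GOM. HOXC9 and IRX5, factors of the same group, were at 2.18 to 7.38 TPM and 2.96 to 5.82 TPM in ULB and below 0.5 TPM in all GOM libraries. Of 13 factors of subcutaneous patterning that were tested, 11 were DEGs higher in ULB and 0 were higher in GOM (8 and 0 with the block), with a median log2 fold change of -3.30. Of 9 visceral lineage factors, 7 were higher in GOM and 1 in ULB (6 and 0 with the block). These lists hold factors known to differ between depots, several of them from the study itself, so their counts are not independent evidence.

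Lists of genes by cell type and function were set beside the shares of DEGs among all genes tested. Mesothelial markers stood furthest from that background towards GOM. Of 18 listed markers, 12 were found by symbol and 11 were tested, and 10 of the 11 were DEGs higher in GOM (7 with the block), with a median log2 fold change of 3.43 against 0.02 for all genes. The exception was KRT18, a keratin of simple epithelia, at 3.75 ± 4.39 TPM (SD, n = 9) in GOM and 10.2 ± 8.32 TPM (SD, n = 5) in ULB (adjusted p = 0.259, edgeR). MSLN, the gene of mesothelin, was not analysed here. The summed level of the mesothelial markers was 345 to 1085 TPM (median 513) in GOM and 47.8 to 92.8 TPM (median 72.7) in ULB, so the groups were apart. In whole tissue, more cells of a type and more RNA per cell cannot be told apart.

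Immune cell genes leaned towards GOM as well. Of 21 markers of T and NK cells, 13 were higher in GOM and 0 in ULB, and 3 and 0 with the block. CD2, an adhesion receptor of T and NK cells, was at 7.85 to 25.7 TPM (median 15.6) in GOM and 4.14, 5.57, 4.91, 4.8 and 2.55 TPM in ULB (log2 fold change 1.87 ± 0.30, adjusted p = 0.000254, edgeR). IL7R, the receptor that keeps resting T cells alive, was at 6.81 to 39.6 TPM (median 15) in GOM and 3.56 to 9.74 TPM in ULB. CD247, a chain of the T cell receptor complex, was not called, at 32.6 ± 8.92 and 32.5 ± 8.6 TPM (SD, n = 9 and 5). The summed level of the list was 133 to 263 TPM (median 203) in GOM and 85.5 to 116 TPM (median 97) in ULB. XCL1, a chemokine made by NK and T cells, had 5.05 to 13.5 TPM (median 10.9) in GOM and 4.26, 0, 1.72, 2.64 and 7.26 TPM in ULB, a difference that was called in the main fit (adjusted p = 0.0283), not with the block (adjusted p = 0.109), and not when ULB replicate 7 was left out.

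B and plasma cell genes were uneven between omental libraries. JCHAIN, the chain that joins IgA and IgM multimers in plasma cells, ranged from 42.1 to 2311 TPM (median 103) in GOM, with its highest value in replicate 6 and the next, 692 TPM, in replicate 8. Its ULB values were 42.7, 21.6, 20.6, 20.1 and 10.7 TPM (log2 fold change 4.11 ± 0.99, adjusted p = 0.00539). The lowest omental libraries thus lay at the level of the highest backfat library. CD22, a lectin of B cells, had non-overlapping levels of 2.03 to 4.19 TPM (median 3.15) in GOM and 0.439 to 1.36 TPM in ULB. Of 13 B and plasma cell genes tested, 3 were higher in GOM (2 with the block), 0 were higher in ULB and 10 were not called.

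Markers of macrophages and monocytes were higher in GOM for 8 of 19 genes and higher in ULB for 1, and with the block for 2 and 1. CX3CR1, the fractalkine receptor of monocytes, was at 5.52 to 48.7 TPM (median 12.48) in GOM and 1.64, 1.2, 0.351, 2.29 and 4.93 TPM in ULB (log2 fold change 3.14 ± 0.63, adjusted p = 0.00153). MARCO, a scavenger receptor of resident macrophages, ran from 0.665 to 24.9 TPM (median 4.15) in GOM against 0.0741 to 1.24 TPM in ULB and was lost with the block (adjusted p = 0.0966). TIMD4, a receptor for dying cells on resident macrophages, ran from 1.7 to 54.1 TPM (median 12.9) against 2.95 to 8.87 TPM and was also lost with the block (adjusted p = 0.491). GPNMB, a glycoprotein of macrophages laden with lipid, was at 191 ± 43.1 TPM in GOM and 194 ± 87.2 TPM in ULB and was not called. Nor was CD163, the haemoglobin scavenger receptor, at 176 ± 91.2 TPM in GOM and 98.8 ± 54.3 TPM in ULB (SD, n = 9 and 5, adjusted p = 0.0906, edgeR). Among 6 genes of MHC class II, 2 were higher in GOM and 0 in ULB, and 0 with the block. SLA-DMA, which loads peptides onto these molecules, was at 33.2 to 71.1 TPM (median 40.7) in GOM and 10.6 to 32.4 TPM in ULB (adjusted p = 0.00379, and 0.082 with the block). CD74, the invariant chain and the most abundant of the list, was at 994 ± 303 and 897 ± 228 TPM and was not called.

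**Figure D2:**
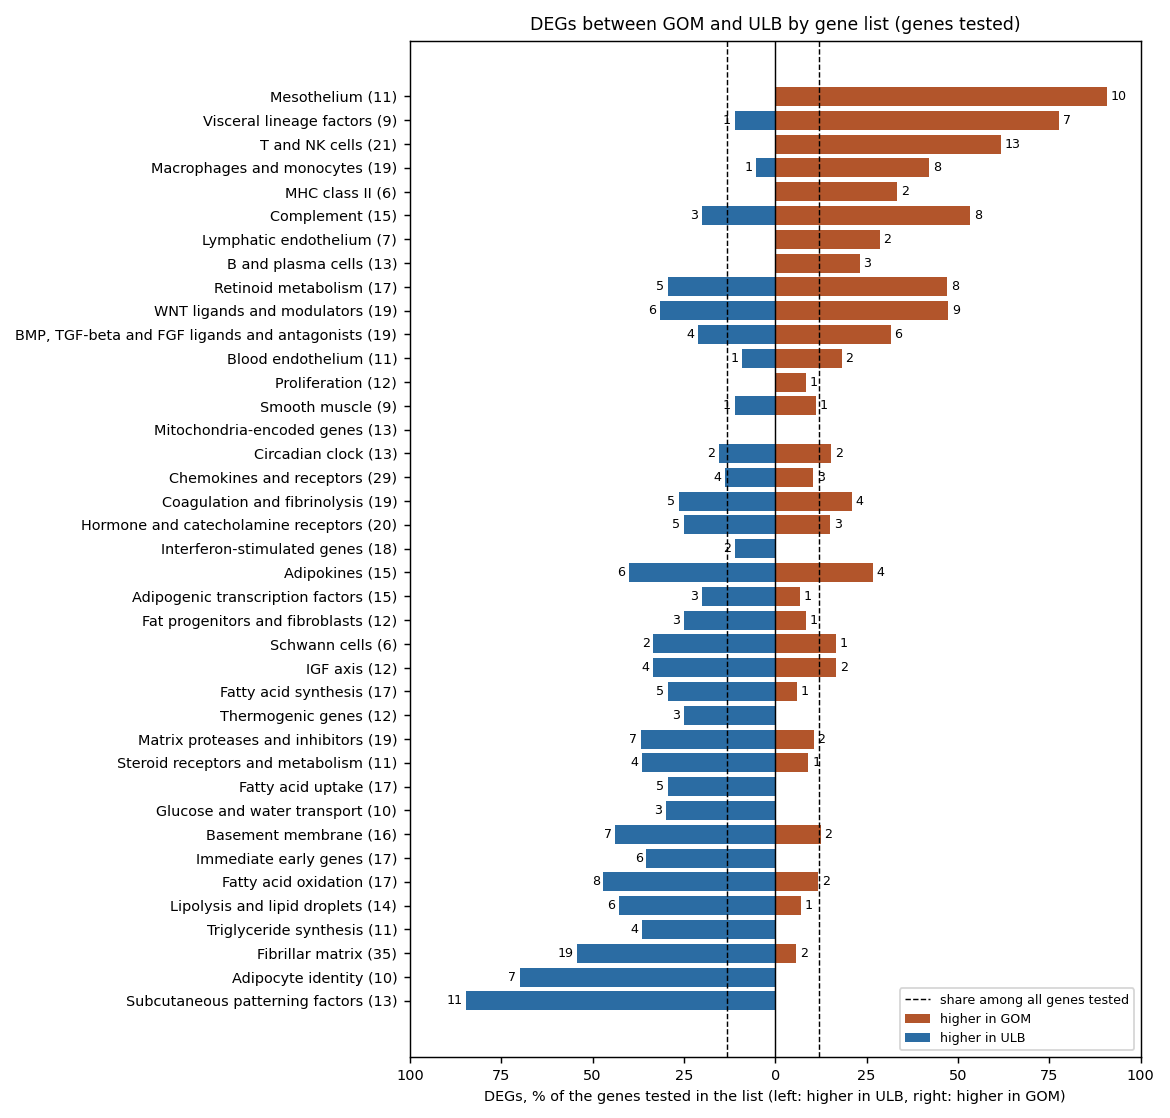
Share of DEGs in each gene list, in percent of the genes tested in that list, with DEGs higher in GOM to the right (orange) and higher in ULB to the left (blue). Numbers at the bars are counts of DEGs, numbers in brackets are genes tested, and dashed lines mark 12.1% and 13.3%, the shares among all genes. Mesothelium (10 of 11) and T and NK cells (13 of 21) reach far to the right, and fibrillar matrix (19 of 35), adipocyte identity (7 of 10) and subcutaneous patterning factors (11 of 13) far to the left.

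Complement genes changed in both directions. CFI, the plasma protease that inactivates C3b and C4b, was at 77.9 to 522 TPM (median 153) in GOM. In ULB its values were 6.39, 7.53, 6.2, 5.82 and 9.6 TPM, a narrow range that lay below every omental library. C3, the central component, was at 239 to 1515 TPM (median 458) in GOM and 11.2, 21.1, 22.9, 29.4 and 93.1 TPM in ULB (log2 fold change 4.07 ± 0.54, adjusted p = 4.11e-05). CFB, the protease of the alternative pathway, was at 15.2 to 179.6 TPM (median 39.8) in GOM and 6.51 to 25.1 TPM in ULB, with overlapping ranges and a log2 fold change of 2.24 ± 0.52. MASP1, a protease of the lectin pathway, went the other way, with 14.4, 18, 26, 6.75 and 24.8 TPM in ULB and 0.805 to 2.31 TPM (median 1.22) in GOM (log2 fold change -3.56 ± 0.30). C1QC and C1QA, subunits of the first component of the classical pathway, were not called (log2 fold changes 0.87 ± 0.41 and 0.68 ± 0.40). Of 15 complement genes tested, 8 were higher in GOM and 3 in ULB (6 and 1 with the block), with a median of 0.87. The median was 0.97 in the libraries of 90% or more and 1.31 in those below.

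Genes of retinoid metabolism also changed in both directions. ALDH1A2, which makes retinoic acid and is known from mesothelium, was at 59 to 172 TPM (median 100.4) in GOM. Its ULB values were 8.41, 13.9, 8.52, 6.57 and 6.73 TPM, all below the lowest omental value (log2 fold change 3.65 ± 0.29, adjusted p = 1.83e-07). CRABP2, which carries retinoic acid to its nuclear receptor, was at 3.88, 7.69, 16.9, 20.7 and 3.18 TPM in ULB and 0 to 1.08 TPM (median 0.163) in GOM. CRABP1, its cytosolic relative, was higher in GOM (log2 fold change 2.56 ± 0.83), but not with the block (adjusted p = 0.177) and not without ULB replicate 2 or 7. RDH5, a retinol dehydrogenase, had 14.1, 1.02, 18.7, 2.83 and 25.3 TPM in ULB and 0.183 to 4.17 TPM (median 0.817) in GOM, and its call was lost with the block (adjusted p = 0.235). The high backfat values of RDH5 were those of the 3 libraries with 90% or more of TPM on PCGs. ALDH1A3 and RBP7, an enzyme and a binding protein of the same pathway, were at 26.8 ± 8.14 and 18.2 ± 6.37 TPM in GOM and 22.5 ± 11 and 21.7 ± 4.98 TPM in ULB (SD, n = 9 and 5), and were not called. Of 17 retinoid genes, 8 were higher in GOM and 5 in ULB, and 3 and 1 with the block.

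Signals of the WNT and BMP families were also divided between the depots. RSPO1, a secreted amplifier of WNT signalling, was at 11.49 to 25.8 TPM (median 15) in GOM and 0.215, 2.33, 0.539, 0.61 and 0 TPM in ULB (log2 fold change 4.73 ± 0.63). LGR5, a receptor for R-spondins, was at 2.04 to 11.4 TPM (median 5.25) in GOM and 0.124 to 0.876 TPM in ULB. WNT5A, a ligand of the non-canonical branch, was at 7.57 to 41.8 TPM (median 18.6) in GOM and 2.53, 3.87, 1.41, 3.22 and 4.68 TPM in ULB (adjusted p = 3.12e-05). With SFRP4 in the opposite direction, 9 of 19 WNT genes were higher in GOM and 6 in ULB (7 and 2 with the block), and 11 of the 19 had TPM ranges that did not overlap, against 7.7% of all genes. DKK2, a WNT antagonist, was not called, at 19.98 ± 7.34 and 27.7 ± 10.6 TPM. BMP7, a ligand studied for its action on adipocyte precursors, was at 3.3 to 14.8 TPM (median 8.17) in GOM and 0.981, 0.5, 0.752, 0.45 and 0.266 TPM in ULB (log2 fold change 3.81 ± 0.46, adjusted p = 1.58e-05). Of 19 ligands and antagonists of the BMP, TGF-beta and FGF families, 6 were higher in GOM and 4 in ULB (5 and 2 with the block). FGF2 was at 82 ± 24.9 TPM in GOM and 61.3 ± 17.6 TPM in ULB (SD, n = 9 and 5) and was not called.

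Of the 42 lists, fibrillar matrix held the most DEGs higher in ULB. Of 35 genes tested, 19 were higher in ULB and 2 in GOM (15 and 1 with the block), with a median log2 fold change of -0.998 that was -0.89 in the libraries of 90% or more and -0.86 in those below. COL3A1, a chain of type III collagen, was at 4687, 2880.2, 6795, 5535 and 6516 TPM in ULB. In GOM it was at 242 to 1019 TPM (median 531), a log2 fold change of -3.09 ± 0.29 (adjusted p = 9.7e-07). COL1A1 and COL1A2, the chains of type I collagen, were at 307, 769.6, 460.1, 2132 and 1801 TPM and 2016, 531, 2464, 1589 and 1488 TPM in ULB and 54.9 to 228 TPM (median 144) and 83.6 to 298 TPM (median 198) in GOM. The backfat values of COL1A1 thus spanned a wide range, with replicate 2 lowest and replicate 9 highest, while COL1A2 was lowest in replicate 5. COL6A6, a chain of the beaded-filament collagen VI, was at 35.8 to 69.1 TPM in ULB and 1.12 to 24 TPM (median 5.23) in GOM. Decorin (DCN) and osteoglycin (OGN), small proteoglycans that bind collagen fibres, were abundant in both tissues and not called, with log2 fold changes of -0.40 ± 0.20 and 0.10 ± 0.20. The summed level of the list was 5654 to 12149 TPM (median 8166) in GOM and 14484 to 24587 TPM (median 22842) in ULB.

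Enzymes that remodel the matrix showed both directions. MMP2, a gelatinase, was at 449, 865, 441, 783 and 1077 TPM in ULB and 81.6 to 181 TPM (median 123) in GOM (log2 fold change -2.50 ± 0.22, adjusted p = 5.67e-07). MMP9, the other gelatinase, had 1.43, 4.68, 6.04, 13.3 and 29.9 TPM in ULB and 0.562 to 6.93 TPM (median 2.41) in GOM, and was no longer called with the block (adjusted p = 0.103) or without ULB replicate 12. TIMP1, an inhibitor of metalloproteinases, was higher in GOM, at 38.8 to 243 TPM (median 84.8) against 5.62, 31.1, 9.23, 25.9 and 37.6 TPM in ULB. Of 19 matrix proteases and inhibitors, 7 were higher in ULB and 2 in GOM (3 and 1 with the block). In the basement membrane, LAMA3, a laminin chain of epithelia, was higher in GOM at 16.6 to 38.2 TPM (median 24.5) against 6.27 to 9.44 TPM. AGRN, the proteoglycan agrin, was higher in GOM at 10.3 to 17.5 TPM (median 12.7) against 3.23 to 10.7 TPM. NID2, a linker of laminin and collagen IV, was higher in ULB at 135 to 296 TPM against 53.1 to 100.9 TPM (median 66.3), and LAMA4, a laminin chain of vessels and adipocytes, was not a DEG (log2 fold change -0.53 ± 0.14, under the 1.5-fold limit). Of 16 basement membrane genes tested, 7 were higher in ULB and 2 in GOM, and 1 and 2 with the block.

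The IGF axis held DEGs in both directions. PAPPA, a protease that frees IGF from its binding proteins, was at 2.38 to 8.27 TPM (median 5.53) in GOM and 1.46, 1.72, 0.638, 1.21 and 2.01 TPM in ULB (log2 fold change 2.01 ± 0.31). Its paralogue PAPPA2 went the other way, at 1.22, 1.99, 1.43, 1.85 and 2.95 TPM in ULB and 0.103 to 0.524 TPM (median 0.254) in GOM (log2 fold change -2.76 ± 0.31). IGFBP5 and IGFBP6, which bind IGFs, were higher in ULB, at 189 to 439 TPM and 34.2 to 187 TPM against 52.3 to 167 TPM (median 127) and 7.47 to 39.9 TPM (median 15.4) in GOM. IGFBP7, a more distant relative, was at 329 ± 62.3 and 326 ± 139 TPM and not called. Of 12 genes tested, 4 were higher in ULB and 2 in GOM (3 and 2 with the block).

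Genes of adipocytes were higher in ULB where they differed. Of 10 adipocyte identity genes, 7 were DEGs higher in ULB and 0 in GOM, with a median log2 fold change of -0.78, and 2 and 0 with the block. The summed level of the list was 5698 to 11054 TPM (median 8610.5) in GOM and 13717 to 19554 TPM (median 15823) in ULB, which did not overlap between the tissues. FABP4, the fatty acid carrier of adipocytes, was at 8369, 6984, 9319, 8014 and 8544 TPM in ULB and 2805 to 5117 TPM (median 3847) in GOM (log2 fold change -1.01 ± 0.19, adjusted p = 0.000976). LEP, the gene of leptin, was at 249, 293, 458, 207 and 141 TPM in ULB and 41.8 to 93.1 TPM (median 75) in GOM, 3.74-fold higher in backfat (adjusted p = 5.88e-05), with no overlap. ADIPOQ (log2 fold change -0.88 ± 0.23), the lipid droplet protein PLIN1 (-0.70 ± 0.15), lipoprotein lipase LPL (-0.85 ± 0.23) and hormone-sensitive lipase LIPE (-0.72 ± 0.22) were called in the main fit and not with the block, where their adjusted p were 0.0619, 0.115, 0.0963 and 0.145. PPARG, the master regulator of adipogenesis, and PNPLA2, adipose triglyceride lipase, were not called (log2 fold changes -0.39 ± 0.22 and -0.24 ± 0.27). CEBPA, a partner of PPARG in late adipogenesis, was higher in ULB, at 145, 135, 379, 96.5 and 134 TPM against 25.3 to 81.8 TPM (median 51.9).

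**Figure D3:**
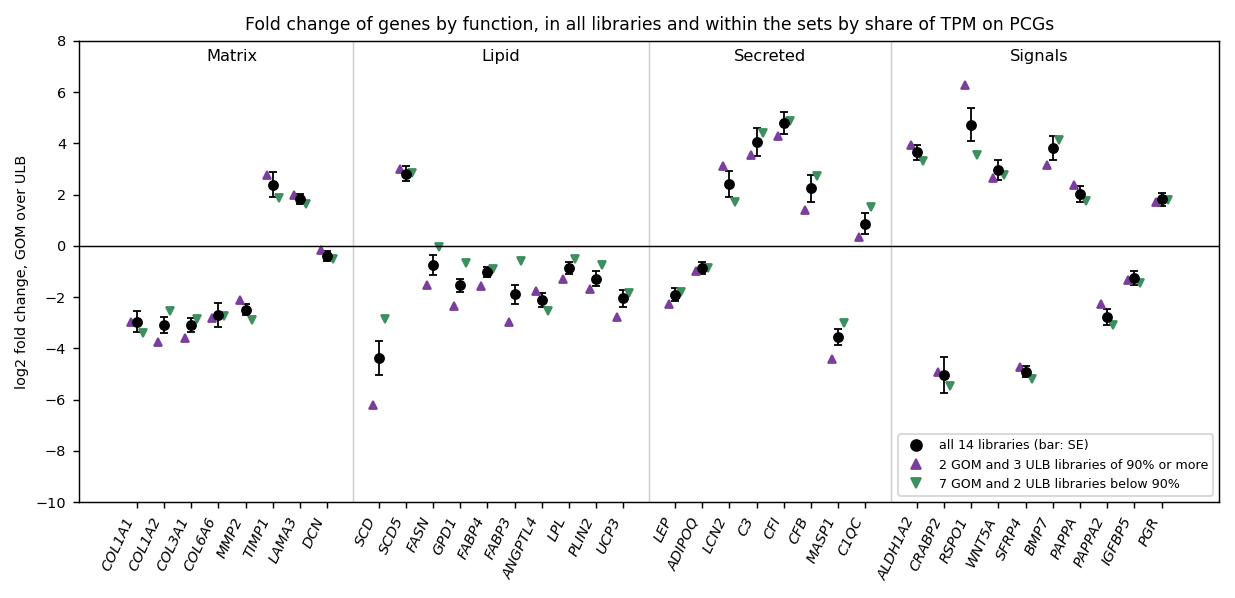
Log2 fold change (GOM over ULB) of genes grouped by function, with black points and bars for the fit to all 14 libraries ± SE. Upward triangles are the fit to the 2 GOM and 3 ULB libraries with 90% or more of TPM on PCGs, and downward triangles the fit to the 7 GOM and 2 ULB libraries below 90%. Collagens, SFRP4 and LEP lie below 0 in all 3 fits and CFI, C3 and ALDH1A2 above it, while FASN, GPD1 and FABP3 lie nearer to 0 in the libraries below 90% than in the other fits.

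Of 17 genes of fatty acid synthesis, 5 were higher in ULB and 1 in GOM, and 2 and 1 with the block. SCD, which makes monounsaturated fatty acids, was at 4656, 3305, 14177, 833 and 4962 TPM in ULB and 45.7 to 729.6 TPM (median 152) in GOM, without overlap (log2 fold change -4.39 ± 0.66, adjusted p = 0.000129). The change was -6.19 in the libraries of 90% or more and -2.84 in those below, and it was called in both. SCD5, a second desaturase gene, was higher in GOM instead, at 5.05 to 19.4 TPM (median 11.2) against 1.74, 1.66, 1.99, 1.08 and 1.61 TPM in ULB (log2 fold change 2.81 ± 0.30). PNPLA3, a lipid droplet hydrolase, was higher in ULB at 18.6 to 120.2 TPM against 3.59 to 23.6 TPM (median 13.9). FASN, fatty acid synthase, was not called, with 743, 939, 2195, 555 and 1866 TPM in ULB and 329 to 1466 TPM (median 527) in GOM (adjusted p = 0.137). THRSP, a lipogenic nuclear protein, was not called either (log2 fold change -0.08 ± 0.44). SREBF1, the transcription factor of lipogenesis, was higher in ULB at 9.89, 86.4, 35.9, 26 and 79.7 TPM against 9.02 to 23.7 TPM (median 17.1), with replicate 2 within the omental range, and not with the block (adjusted p = 0.302).

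DEGs of triglyceride assembly, storage and fatty acid uptake were mostly higher in ULB. GPD1, which makes glycerol 3-phosphate, was at 230.3, 115, 299, 78.5 and 185 TPM in ULB and 45.5 to 88.6 TPM (median 52.6) in GOM (log2 fold change -1.54 ± 0.24), and -0.66 in the libraries below 90%, where it was not called. GPAM, the first acyltransferase of the pathway, was at 12.9 to 16.7 TPM in ULB and 6.67 to 10.9 TPM (median 9.61) in GOM. DGAT2, the last, was not called (110.0 ± 64.3 and 224 ± 163 TPM, SD, n = 9 and 5). Of 11 genes of triglyceride synthesis, 4 were higher in ULB and 0 in GOM, and 2 and 0 with the block. PLIN2, a coat protein of lipid droplets, and ABHD5, the activator of adipose triglyceride lipase, were higher in ULB (log2 fold changes -1.28 ± 0.29 and -1.24 ± 0.25). PLIN5, the droplet coat protein of oxidative tissues, was higher in GOM (log2 fold change 0.79 ± 0.28), but not with the block (adjusted p = 0.297). Of 14 genes of lipolysis and lipid droplets, 6 were higher in ULB and 1 in GOM, and 2 and 0 with the block. ANGPTL4, a secreted inhibitor of lipoprotein lipase, was at 45.6, 114, 86.7, 99.9 and 98.4 TPM in ULB and 8.65 to 32.3 TPM (median 18) in GOM (log2 fold change -2.12 ± 0.27, adjusted p = 2.55e-05). FABP3, the fatty acid carrier of muscle, was at 379, 155, 493.1, 94.6 and 418 TPM in ULB and 39.4 to 154 TPM (median 58.7) in GOM, and its change was -0.60 in the libraries below 90%. FABP5 was not called (log2 fold change 0.52 ± 0.21), and of 17 genes of fatty acid uptake 5 were higher in ULB and 0 in GOM, and 3 and 0 with the block.

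Mitochondrial fat burning was represented by more DEGs in ULB than in GOM. Of 17 genes of fatty acid oxidation, 8 were higher in ULB and 2 in GOM, and 4 and 0 with the block. ETFDH, which passes electrons from fatty acid oxidation to ubiquinone, was at 253, 140.1, 265, 123 and 177 TPM in ULB and 57.7 to 126 TPM (median 75.1) in GOM (log2 fold change -1.20 ± 0.20). UCP3, an uncoupling protein best known from muscle, was at 61.4, 95.6, 207, 129.5 and 178 TPM in ULB and 12.8 to 53.4 TPM (median 24.4) in GOM (log2 fold change -2.05 ± 0.34, adjusted p = 0.000283). UCP2, a related carrier common in immune cells, was higher in GOM (log2 fold change 1.81 ± 0.52), but not with the block (adjusted p = 0.056). SLC25A20, which imports acylcarnitines, was at 65.8 to 95 TPM in ULB and 23.2 to 47.5 TPM (median 34.1) in GOM. PDK4, a kinase that restrains glucose oxidation, was spread widely in both tissues, at 1777, 801, 120.0, 245 and 651 TPM in ULB and 158 to 1344 TPM (median 551) in GOM, and was not called. The 13 genes encoded by mitochondrial DNA were all tested and none was called, with a median log2 fold change of 0.95 that was 2.75 in the libraries of 90% or more and -0.36 in those below. No direction is therefore given for them, and sequence shared with nuclear copies makes their counts uncertain.

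Transporters and receptors for hormones differed in part. AQP3, a channel for water and glycerol, was at 49.2, 126, 76.5, 108 and 208 TPM in ULB and 12.9 to 48.3 TPM (median 31.1) in GOM (log2 fold change -1.76 ± 0.33). SLC2A4, the insulin-responsive glucose transporter, was at 47.9, 29.3, 75.5, 16.3 and 47.2 TPM in ULB and 11 to 32.4 TPM (median 14.2) in GOM (log2 fold change -1.13 ± 0.30, and -0.30 in the libraries below 90%, where it was not called, as with a term for the library set). IRS2, an adaptor of the insulin receptor, was at 51.8 to 79.8 TPM in ULB and 21.8 to 37 TPM (median 28.4) in GOM. LEPR, the leptin receptor, and ADRA2A, an adrenergic receptor that restrains lipolysis, were higher in GOM (log2 fold changes 1.46 ± 0.38 and 1.33 ± 0.45), but not with the block (adjusted p = 0.14 and 0.511). PGR, the progesterone receptor, was at 6.23 to 12.6 TPM (median 9.33) in GOM and 1.91, 3.71, 2.16, 1.89 and 5.05 TPM in ULB, without overlap (log2 fold change 1.82 ± 0.25, adjusted p = 5.17e-05). ESR1, an oestrogen receptor, was higher in ULB (log2 fold change -0.91 ± 0.25), but not with the block (adjusted p = 0.253). SRD5A1, which reduces testosterone and other steroids, was at 14.8 to 39.2 TPM in ULB and 4.49 to 16.8 TPM (median 5.74) in GOM, whereas HSD11B1, which activates cortisol, was not called (96.3 ± 19.4 and 88.1 ± 53.1 TPM). Of 20 hormone and catecholamine receptors, 5 were higher in ULB and 3 in GOM, and 1 and 0 with the block. Among all genes tested, 13.3% were higher in ULB and 12.1% in GOM in the main fit, so the count towards GOM is near the background.

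Secreted factors of fat other than leptin and adiponectin went both ways. LCN2, a protein that sequesters bacterial siderophores, was at 44.8 to 300.4 TPM (median 118) in GOM and 6.49, 37.2, 13.4, 42.9 and 37.6 TPM in ULB (log2 fold change 2.41 ± 0.51). IL18, a cytokine released by inflammasomes, was higher in GOM (log2 fold change 1.45 ± 0.38), but not with the block (adjusted p = 0.25). APLN, the peptide apelin, was higher in ULB (log2 fold change -1.85 ± 0.46), but not with the block (adjusted p = 0.161) and not without ULB replicate 7. Among 15 adipokines, 4 were higher in GOM and 6 in ULB, and 1 and 1 with the block. CXCL14, a chemokine of epithelia and fibroblasts, and CCL4, a chemokine of activated leukocytes, were higher in ULB (log2 fold changes -1.11 ± 0.31 and -1.29 ± 0.37). The call of CXCL14 was lost with the block (adjusted p = 0.165) and that of CCL4 without ULB replicate 2. Of 29 chemokines and receptors tested, 3 were higher in GOM, XCL1 among them, and 4 in ULB (1 and 2 with the block). These counts are near the shares of 12.1% and 13.3% among all genes, and 22 of the list were not called. ISG15 and IFI6, genes induced by interferon, were higher in ULB at 28.2, 27.1, 79.4, 27.6 and 50.9 TPM and 149, 33.4, 344, 69.3 and 139 TPM, and both were lost with the block (adjusted p = 0.0626 and 0.174). Of the 18 interferon-stimulated genes tested, 16 were not called.

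Several differences were of cell types other than those above. MBP, a myelin protein that is not limited to Schwann cells, was higher in GOM (log2 fold change 0.69 ± 0.19), but not with the block (adjusted p = 0.134) or without ULB replicate 5. LMOD1, a regulator of actin filaments in smooth muscle, was at 16.3 to 42.3 TPM (median 32.9) in GOM and 7.91 to 13.9 TPM in ULB. ACTG2, the actin of enteric smooth muscle, was higher in ULB (log2 fold change -1.61 ± 0.48), but not with the block (adjusted p = 0.0528) or without ULB replicate 12. CLDN5, a tight junction protein of endothelium, was at 81.9, 21, 132, 40.3 and 41.4 TPM in ULB and 11.9 to 21.6 TPM (median 18.5) in GOM, while PECAM1, a general endothelial marker, was at 318 ± 51.8 and 344 ± 32.1 TPM and not called. Of 12 markers of fat progenitors and fibroblasts, 3 were higher in ULB and 1 in GOM, and 1 and 0 with the block. PDGFRB, a receptor of mural and stromal cells, was at 30.4 to 78 TPM in ULB and 20.3 to 33.2 TPM (median 25.7) in GOM (adjusted p = 0.00031, and 0.0543 with the block). PDGFRA, its counterpart on fat progenitors, was at 94 ± 25.1 and 79.4 ± 25 TPM and not called. FOS and FOSB, transcription factors of the immediate early class, were higher in ULB (log2 fold changes -1.20 ± 0.36 and -2.33 ± 0.42), with backfat values of 575, 510.1, 172, 145 and 715 TPM and 61.1, 168, 19.5, 64.3 and 193 TPM. Neither was called with the block (adjusted p = 0.121 and 0.0813). Of 17 immediate early genes, 6 were called higher in ULB and 0 in GOM, and 0 in either direction with the block.

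The same contrast in WG and WL pigs rests on other samples. The 12 genes of large change higher in GOM and the 11 higher in ULB were all DEGs in the same direction in WG pigs (45 GOM and 38 ULB libraries) and again in WL pigs (10 and 10). Of 128 DEGs named here, 98 were called in the same direction in WG and 95 in WL, and 0 in the other direction. Of the 1739 NC DEGs higher in GOM, 45.4% were called higher in GOM in WG and 39.1% in WL, where 10.5% and 8.07% of 14860 genes tested were so called. Of the 1899 higher in ULB, 33.4% were called in WG and 26.6% in WL, against 7.78% and 5.04% of all genes. The size of the contrast differed from that in NC, by edgeR's test of the interaction, for 343 genes in WG (2.31%) and 117 in WL (0.787%). With a term for the library set, the contrast leaned more to GOM for 668 genes in WG and more to ULB for 308, and for 99 and 56 genes in WL. Libraries below 90% were 4 of 45 in GOM and 1 of 38 in ULB in WG, and 8 of 10 and 3 of 10 in WL. Among NC DEGs whose contrast differed in WG, it was smaller or turned for 131 of 136 higher in GOM and 130 of 132 higher in ULB. In WL this held for 31 of 37 and 44 of 44. The DEGs were chosen by their contrast in NC, and the part of that choice was not tested.

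Chromatin compartments were compared through the A-B index, a score without unit that the authors computed for each 20-kb bin and that is above 0 in compartment A and below 0 in compartment B. An A/B switch was a bin in A in over 80% of the samples of one tissue and in B in over 80% of those of the other, which for ULB means all 5. Of 113298 bins, 402 (0.355%) were switches with A in GOM and 508 (0.448%) with A in ULB. A/B variable bins kept their compartment and differed in index by more than 0.75 at an adjusted p below 0.05 (limma), and 6789 (5.99%) were higher in GOM and 9105 (8.04%) in ULB. With the replicate number as a block the counts were 6230 and 5759, so that the larger number was no longer on the ULB side. Leaving out ULB replicate 9 raised the switches with A in GOM to 745, and leaving out a sample can only raise or keep such a count.

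Few genes started in a switch. Of 10590 genes tested that could be placed on the autosomes by symbol, 24 (0.227%) had a start site in a switch with A in GOM and 28 (0.264%) in one with A in ULB. Among 1154 DEGs higher in GOM the counts were 13 (1.13%) and 3 (0.26%), and among 1554 DEGs higher in ULB they were 0 and 6 (0.386%). Variable bins higher in GOM held 8.32% of the DEGs higher in GOM, 1.54% of those higher in ULB and 3.14% of all genes. Variable bins higher in ULB held 4.59%, 13.1% and 8.16%. Over all genes 85.2% had a mean index above 0 in both tissues.

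The 13 DEGs higher in GOM in the first of these groups included UPK1B and WT1, and those higher in ULB included EN1, IRX3 and IRX5. At the start of WT1 the index lay between 0.4682 and 3.2531 in GOM (median 2.4279) and between -1.8136 and -0.3391 in ULB. At UPK1B it lay between 0.4182 and 2.2443 in GOM and between -1.3095 and -0.1361 in ULB. At EN1 it was 1.5832 to 2.0744 in ULB and -1.1329 to 0.0608 in GOM. IRX3 and IRX5, neighbours on chromosome 6, were at 0.0967 to 0.8511 and 0.1146 to 0.7481 in ULB and at -2.0684 to -1.2465 and -2.0800 to -1.1424 in GOM. BMP7 was in the first group too, at -0.1278 to 1.6342 in GOM and -1.4499 to -0.0124 in ULB, with ranges that overlapped.

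The remaining genes at switches were named after their values were seen. LRP2, the endocytic receptor megalin, averaged 31.3 TPM in GOM and 1.35 TPM in ULB, and its index was 0.4465 to 2.1081 in GOM and -1.1456 to -0.2316 in ULB. TJP1, a scaffold of tight junctions, averaged 176 and 68.5 TPM, with an index of 0.1024 to 1.7533 in GOM and -1.9436 to -0.6573 in ULB. MYO5B, a motor of epithelial membrane traffic, averaged 10.0 and 0.949 TPM, and KCND3, a potassium channel, 3.11 and 0.425 TPM. NKX3-2, a homeobox factor of visceral mesoderm, averaged 3.84 and 0.19 TPM. VIPR2, a receptor for vasoactive intestinal peptide, MTUS1, NIPAL1, RIPOR2 and GCSAM made up the rest of the 13 with BMP7, and in 9 of the 13 the index ranges of the tissues did not overlap. The switch rule already places most samples of the 2 tissues on opposite sides of 0, so this separation is a description. The share of such bins among all bins was not computed. CASP1, the inflammasome protease, PDE4D, a phosphodiesterase of cyclic AMP, and ATP2B2, a calcium pump, were higher in GOM although their starts were in A in ULB and in B in GOM. NTN4, a netrin of basement membranes, KCNE4, a potassium channel subunit, and ARHGAP24 completed the 6 genes higher in ULB, with NTN4 at 17.7 TPM in ULB and 4.56 TPM in GOM on average. With the block, VIPR2 (adjusted p = 0.104), GCSAM (0.435), PDE4D (0.125), ATP2B2 (0.0813) and ARHGAP24 (0.063) were not called. VIPR2 was also lost without ULB replicate 2 or 7, GCSAM without ULB replicate 7 or 9, and ARHGAP24 without GOM replicate 5 or 9.

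**Figure D4:**
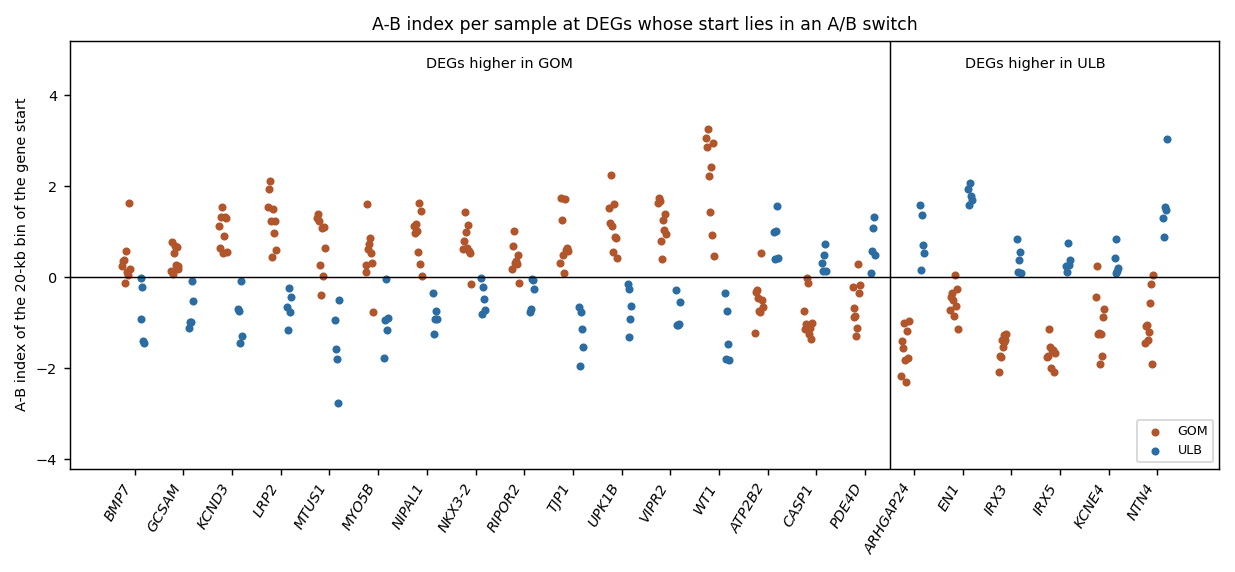
A-B index of the 20-kb bin at the start of each of 22 DEGs whose start lies in an A/B switch, with 1 point per Hi-C sample (9 GOM, 5 ULB) and a horizontal line at 0 between compartments A and B. In 13 of the 16 DEGs higher in GOM the GOM points are mostly above 0 and all ULB points below it, in ATP2B2, CASP1 and PDE4D the order is the opposite, and in all 6 DEGs higher in ULB the ULB points are above 0.

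Of the genes with the largest change, CFI, ST6GAL2 and GATA5 started in A/B variable bins higher in GOM (index differences 1.46, 1.95 and 0.779) and FGF10 and CRYM in ones higher in ULB (differences -1.85 and -1.04, GOM minus ULB). For FGF10 the mean index was -2.74 in GOM and -0.888 in ULB, so this gene lay in compartment B in both tissues while its mean level was 71.8 ± 35.8 TPM in ULB. MMP2, UCP3, FABP3, AQP3 and PLIN1, all higher in ULB, also started in variable bins higher in ULB, with index differences of -1.01, -1.13, -1.085, -1.03 and -1.0015. CD22 and MARCO went against their expression, since both were higher in GOM and the bins of their starts were higher in ULB. With the block, the index of GATA5 (adjusted p = 0.359), CRYM (0.0768), AQP3 (0.139), PLIN1 (0.0916) and MARCO (0.0555) no longer passed.

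Promoter sequence is shown for 4 of the genes at switches, 2 per direction, because both expression and compartment differ there. Each run is the 250 bases before the annotated RefSeq start in Sscrofa11.1, 5′ to 3′ on the strand of the gene. Capitals mark GGGCGG (the core of the Sp1 site) and CCAAT on either strand, and TATAAA was searched for in the same way. So was AGATAA, a site of the family of factors that includes GATA5. Neither was present in these 4 windows. None of these motifs contains another. They were chosen after earlier results were known, and a match is no evidence of binding.
UPK1B, chr13:141026369-141026618, minus strand: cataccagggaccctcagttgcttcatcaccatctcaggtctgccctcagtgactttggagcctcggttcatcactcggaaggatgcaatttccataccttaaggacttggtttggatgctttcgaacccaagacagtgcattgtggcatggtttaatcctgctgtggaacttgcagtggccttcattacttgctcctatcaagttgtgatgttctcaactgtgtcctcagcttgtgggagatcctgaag
WT1, chr2:28411217-28411466, plus strand: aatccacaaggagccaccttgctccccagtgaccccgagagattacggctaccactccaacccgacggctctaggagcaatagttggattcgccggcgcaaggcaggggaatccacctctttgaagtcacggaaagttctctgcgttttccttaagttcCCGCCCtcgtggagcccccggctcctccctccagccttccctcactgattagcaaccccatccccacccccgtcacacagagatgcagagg
EN1, chr15:24408378-24408627, minus strand: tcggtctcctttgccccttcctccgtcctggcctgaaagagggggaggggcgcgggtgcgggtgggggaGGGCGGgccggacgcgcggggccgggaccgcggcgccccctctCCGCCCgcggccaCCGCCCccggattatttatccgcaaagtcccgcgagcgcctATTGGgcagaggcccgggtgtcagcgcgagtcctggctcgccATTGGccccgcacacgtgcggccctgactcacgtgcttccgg
IRX3, chr6:31044669-31044918, plus strand: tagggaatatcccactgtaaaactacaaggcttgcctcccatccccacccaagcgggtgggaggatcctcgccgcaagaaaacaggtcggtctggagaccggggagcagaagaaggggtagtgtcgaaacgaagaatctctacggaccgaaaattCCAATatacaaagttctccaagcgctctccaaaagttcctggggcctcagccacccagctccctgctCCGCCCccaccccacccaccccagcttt
The window of EN1 held 74.0% G and C, 32 CpG, 3 matches to GGGCGG and 2 to CCAAT, and that of UPK1B 48.8% G and C, 3 CpG and no match. WT1 had 59.2% and IRX3 56.8%, with 1 match to GGGCGG each. The window of IRX5, which had a larger change than IRX3 and is not shown, held 71.2% G and C and no match. Over 10947 promoters of genes tested, 56.4% held GGGCGG, 32.6% CCAAT, 7.04% TATAAA and 6.31% AGATAA. Among promoters of DEGs higher in GOM the shares were 51.2%, 29.7%, 8.58% and 7.65%, and among those higher in ULB 58.3%, 36.1%, 6.69% and 5.94%.

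H3K27ac gave 20169 enhancer regions in GOM, of which 956 were marked by the authors as super-enhancers, and 19558 in ULB, of which 998 were. One table per tissue was made from pooled replicates, so no spread between samples can be given. Regions covered 539 Mb in GOM and 431 Mb in ULB, and 69.4% of the GOM regions and 79.3% of the ULB regions overlapped one of the other tissue. A gene was assigned the regions that touched its body with 10 kb on each side. Of 1194 DEGs higher in GOM, 31.7% had a super-enhancer in the GOM table and 18.8% in the ULB table, against 24.2% and 23.6% of all 11076 genes placed. Of 1622 DEGs higher in ULB, 22.8% had one in the GOM table and 27.4% in the ULB table. Regions in the GOM table alone were at 4.69% of the DEGs higher in GOM, 2.03% of those higher in ULB and 2.32% of all genes, and regions in the ULB table alone at 1.59%, 4.01% and 1.76%.

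At some single genes the contrast was wide. WT1 lay in a GOM super-enhancer of 264 kb (chr2:28279401-28543199), ranked 43 of 20169, whereas the strongest ULB region at the gene spanned 5.6 kb and ranked 17334 of 19558. GPM6A, GATA5, BNC1 and UPK1B lay in GOM super-enhancers ranked 156, 167, 267 and 477. Of these 4, UPK1B alone had a region in the ULB table, of 4 kb and ranked 13784. ALDH1A2, BMP7, RSPO1 and LAMA3 were marked in the same way, with super-enhancers ranked 139, 337, 890 and 654 in GOM and no super-enhancer in ULB. In the ULB table KERA, CRABP2 and EN1 had super-enhancers ranked 273, 436 and 909, and the regions at KERA and CRABP2 in the GOM table, ranked 2188 and 1120, were not marked as super-enhancers. Rank and mark were set within each table. At CRABP2 the signals were alike, at 35511 in GOM and 34315 in ULB (inputs 18978 and 20221), so only rank and mark differed there. ZIC1, EN1, IRX1, CTHRC1 and LEP had no region in the GOM table. CFI and TCF21, higher in GOM, had regions in the GOM table alone, ranked 2324 and 5743. COL1A1, COL3A1 and ANGPTL4, higher in ULB, lay in super-enhancers of both tables, ranked 447, 394 and 478 in GOM and 93, 338 and 168 in ULB.

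At other genes the regions did not go with expression. THBS4, higher in ULB, had its stronger region in the GOM table (rank 8090, against 19479 in ULB), but that region lay beyond the end of the gene and was not counted with no flank. FABP4, higher in ULB, lay in a super-enhancer of the GOM table (rank 878) and had no region within 10 kb in the ULB table. GREM1, higher in GOM, had a region of 2.8 kb in both tables, ranked 13823 and 17289. JCHAIN had no region in either table. ENTPD8 was placed outside the assembled chromosomes, where no region could be matched, so nothing is said of its enhancers. With no flank the ULB region at UPK1B was not counted either. With a flank of 50 kb, ULB regions were also found for GATA5, GPM6A, CFI, TCF21 and FABP4, a GOM region for LEP and regions of both tables for JCHAIN. At UPK1B, 2 ULB regions lay within 50 kb, of which 1 was a super-enhancer.

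**Figure D5:**
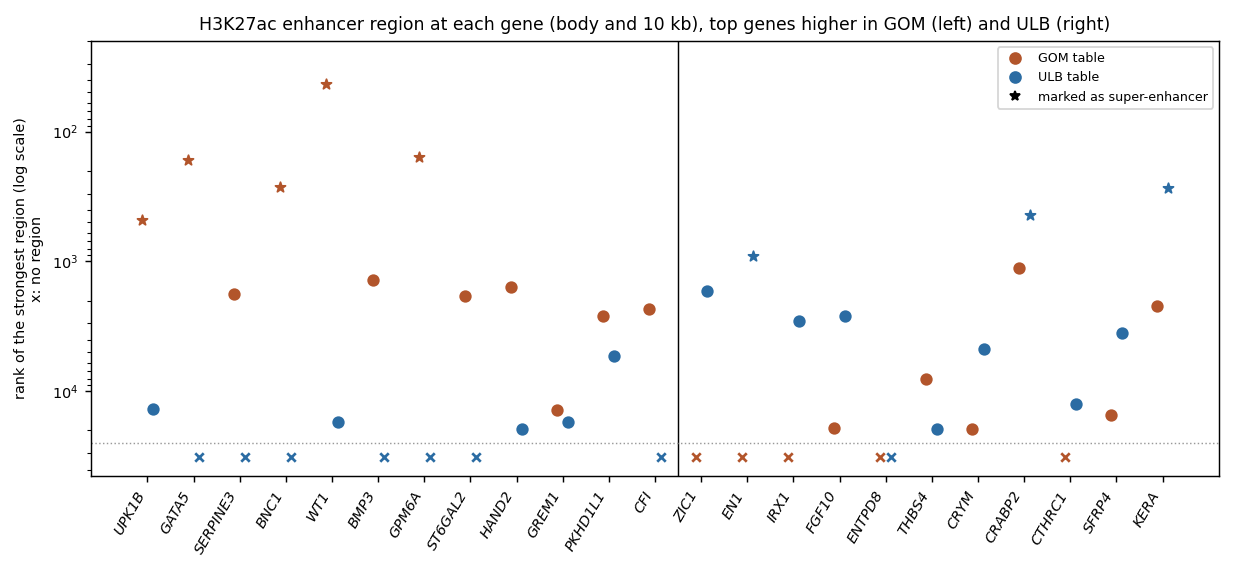
Rank of the strongest H3K27ac enhancer region at each of the same 23 genes of large change (log axis, rank 1 at the top), in the pooled table of GOM (orange) and of ULB (blue). Stars are regions marked as super-enhancers and crosses genes without a region. The crosses of ENTPD8 reflect its place outside the assembled chromosomes, where no region could be matched. UPK1B, GATA5, BNC1, WT1 and GPM6A have an orange star, 3 genes higher in ULB a blue one, and THBS4 is higher in ULB and has a better rank in GOM.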

How the data were processed

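RNA was sequenced after ribosomal depletion, and the authors estimated abundance with kallisto 0.43.0 and tximport against Sscrofa11.1. The deposited estimated counts, of which none above 0 is whole within 1e-09, were rounded for testing, and the deposited TPM, which the authors computed over PCGs and other RNAs, were used for levels. Totals on PCGs ranged from 7835504 to 17521417 in GOM (median 9262929) and from 8229496 to 22939420 in ULB (median 13428842). Counts of any 2 replicates differed for at least 99.66% of the genes tested. The A-B index is a score that the authors computed from contact matrices balanced by the Knight-Ruiz method and normalized with BNBC; it comes without counts. The signal, rank and super-enhancer mark of each enhancer region were deposited as ROSE gave them on pooled reads (BWA 0.7.15, SAMtools 1.3.1, SICER). In each table, 9 columns match no label and were not used.

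PCGs that passed 0.5 TPM in 80% or more of the libraries of either tissue were tested with edgeR 4.0.16 (TMM, quasi-likelihood test, no covariate) in R 4.3.3. The index was tested with limma 3.58.1, and regions were handled in Python 3.11.15. The tests were first run on simulated data with known changes. Alternatives were DESeq2 1.42.0, upper-quartile scaling, edgeR's exact test, other filters, the replicate number as a block, the set of libraries by share of TPM on PCGs, and each library left out. The study does not say that a number marks a pig. After tissue means were removed, log2(TPM + 1) of same-numbered libraries correlated at 0.104 to 0.175 in all 4 pairs (median -0.034 for other numbers), so the numbers were taken as pairs in the block. Of 41 pairs of other numbers, 6 were above 0.1, up to 0.253. On log2 CPM, 2 of the 4 same-numbered pairs were above 0.1 (0.067 to 0.177). These correlations do not settle whether a number marks a pig.

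The members and the 42 gene lists were chosen with earlier results of these data known. The text names the genes of the largest change (12 per direction by the rule), up to 4 DEGs by fold change (mean TPM of at least 1 in the higher tissue) and up to 2 of the most abundant genes not called from each list, 7 label checks, and the DEGs at switches, chosen after their values were seen. List members without a symbol match, such as MSLN, KRT19 and CIDEA, were not analysed here, and some genes that the rule names are not reported here. RefSeq gene positions were matched by symbol for 13723 of 21280 PCGs, and the last bin of all 18 autosomes ended within 1 bin of the reference length.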

Additional observations from a re-analysis of the deposited data

Results flagged for a closer look

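A library stood apart from the others of its tissue, by the gap to its nearest neighbour relative to the range of log2(TPM + 1), in 14 of 312 groups of libraries looked at for the genes named here, and chance gives about 1 in 20. In GOM replicate 5, 4 genes of adipocytes and vessels were the lowest of the 9 libraries: the lipase PNPLA2 at 107.4 TPM, the adipogenic regulator PPARG at 75.03, hormone-sensitive lipase LIPE at 128.6 and the endothelial claudin CLDN5 at 11.86. In GOM replicate 2, LPL was highest at 2149 TPM. The laminin chain LAMA4 was highest in GOM replicate 6, at 192.2 TPM, and ZIC1 in GOM replicate 1, at 0.3997 TPM. In ULB replicate 9, SERPINE3 and BNC1, both higher in GOM, had their highest backfat values, 0.6979 and 0.4359 TPM, while ADRA2A and CXCL14 had their lowest, 0.7822 and 19.3 TPM. THBS4 was lowest in ULB replicate 2, at 5.958 TPM, CD74 highest in ULB replicate 12, at 1296 TPM, and LRP2 highest in ULB replicate 5, at 5.408 TPM.

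The contrast of GOM and ULB differed between diets, by edgeR's test of the interaction, for 6 of the genes named here. This test held no term for the library set, and the genes had been named for their contrast in NC. The difference of the log2 fold changes (GOM over ULB) between WG and NC was 2.907 for CTHRC1 (adjusted p = 0.00517), 1.581 for PLIN2 (adjusted p = 0.0445), 1.374 for AQP3 (adjusted p = 0.0396) and -2.334 for CX3CR1 (adjusted p = 0.0345). Between WL and NC it was 1.714 for CRYM (adjusted p = 0.017) and 1.728 for COL3A1 (adjusted p = 0.0278). For PLIN2 the contrast itself was 0.28 in WG (adjusted p = 0.194). CTHRC1, CRYM and COL3A1 were still higher in ULB in both diets, with log2 fold changes of -2.16 and -3.00 (WG and WL), -4.28 and -3.66, and -2.33 and -1.38.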

How the results depend on the processing

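The replicate block gave 646 DEGs higher in GOM and 651 in ULB, libraries of 90% or more 828 and 1044, and libraries below 90% 511 and 538, where fewer pairs or libraries entered each fit. Other settings (DESeq2, upper-quartile scaling, edgeR's exact test, other filters, a term for the library set) gave 1543 to 2019 and 1446 to 2161. Without each library in turn, the counts were 1202 to 2057 in GOM and 1459 to 2231 in ULB, lowest without ULB replicate 7 and highest without ULB replicate 5. Interaction calls for WG were 976 with the term for the library set.

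Of 128 named DEGs, the block lost 36, each given beside its gene. The term for the set lost TIMD4, ESR1, RDH5, IFI6, SLC2A4, FOS, CRY2, GCSAM and ARHGAP24, upper-quartile scaling GPAM, and no filter PLIN5, ADRA2A, XCL1 and GCSAM. DESeq2 and the exact test lost 0, libraries of 90% or more 46 and those below 90% 54. No named DEG changed sign in these settings, and 111 were called without each of the 14 libraries. Among all 3638 DEGs of the main fit, 4 changed sign in the libraries of 90% or more and 79 in those below 90%. ADRA2A, TIMD4 and PLIN5 were lost without each of 6, 8 and 9 single libraries.

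Switches at 70% of samples or more numbered 1557 (A in GOM) and 1414 (A in ULB). Leaving out a sample gave 413 to 745 and 512 to 685 switches, most A in GOM without ULB replicate 9, and 4670 to 7833 and 7121 to 10618 variable bins. The number of switches cannot fall there, since the rule then asks for fewer samples and keeps every switch of the main setting. Samples with the same number were above r = 0.1 in 3 of 4 pairs of the index (median 0.128, against -0.029 for other numbers). As for RNA, the main test of the index used no pairs, and the block is given beside it. Quantile normalization of the index gave 462 and 607 switches and 8912 and 9513 variable bins, and a limit of 0.5 gave 7833 and 10956 variable bins. With the block, 6230 variable bins were higher in GOM and 5759 in ULB. Pooled H3K27ac tables and an index without counts leave no depth limit to compute. With no flank, regions in the GOM table alone were at 7.45% of the DEGs higher in GOM and 3.67% of all genes, with 50 kb at 2.35% and 0.722%, and regions in the ULB table alone were at 5.12% of the DEGs higher in ULB and 2.48% of all genes, and 2.1% and 0.867%. Counting overlap of at least 0.5 of the shorter region, 67.9% of GOM and 77.6% of ULB regions were shared.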

Other observations

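Of 13 circadian clock genes tested, 2 were higher in GOM and 2 in ULB, and 1 and 0 with the replicate block. These counts are near the shares of 12.1% and 13.3% among all genes. NPAS2, a partner of the clock protein BMAL1, was at 5.94 to 16.4 TPM (median 7.88) in GOM and 1.72, 4.55, 2.37, 6.39 and 5.26 TPM in ULB (log2 fold change GOM over ULB 1.23 ± 0.30, adjusted p = 0.00593, edgeR). PER2, a repressor in the clock, was higher in GOM as well (log2 fold change 0.86 ± 0.27), and CIART and CRY2, other repressors, were higher in ULB (-1.001 ± 0.27 and -0.83 ± 0.27). NPAS2 stayed called with the replicate block (adjusted p = 0.0411), whereas PER2, CIART and CRY2 did not (adjusted p = 0.167, 0.0666 and 0.102). PER1 and NR1D2, the most abundant of the 9 clock genes that were not called out of 13, had log2 fold changes of 0.40 ± 0.27 and -0.52 ± 0.22. The time of day at sampling was not used here.

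Clotting and vessel genes gave isolated differences. SERPINB2, an inhibitor of plasminogen activators, ran from 1.59 to 32.4 TPM (median 2.69) in GOM and was at 0.295, 0, 0.106, 0 and 0.544 TPM in ULB (log2 fold change 5.09 ± 0.99). PROS1, the anticoagulant protein S, was at 215, 76.3, 263, 85.8 and 151 TPM in ULB and 35.2 to 63.8 TPM (median 47) in GOM (log2 fold change -1.66 ± 0.23, adjusted p = 5.28e-05, edgeR). F2RL1, a receptor activated by trypsin-like proteases, was at 1.03 to 3.22 TPM (median 1.8) in GOM and 0.476 to 0.951 TPM in ULB. Of 19 genes of coagulation and fibrinolysis, 5 were higher in ULB and 4 in GOM (3 and 2 with the block). PLVAP, a protein of fenestrated endothelium, was higher in GOM (log2 fold change 0.70 ± 0.17), but not with the replicate block (adjusted p = 0.0994) or without ULB replicate 2. Of 11 markers of blood endothelium, 2 were higher in GOM and 1 in ULB, and 0 and 1 with the block. For lymphatic endothelium 2 of 7 markers were higher in GOM (1 with the block), and LYVE1, a hyaluronan receptor of lymph vessels, was at 98.4 ± 31.3 TPM in GOM and 93.9 ± 50.6 TPM in ULB (SD, n = 9 and 5) and was not called.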
